A study of Arabis alpina with 18 samples.

Results

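The shoot apex of Arabis alpina, a perennial relative of Arabidopsis, was compared between plants of 5 weeks and of 3 weeks in the mutant called eop055. Messenger RNA was sequenced from dissected apices of plants grown in long days, all of the accession Pajares. The members were chosen by their labels: 3 libraries from 5-week and 3 from 3-week eop055 apices, 6 of the 18 libraries of the series. Apices of the pep1-1 mutant at 5 weeks and at 3 weeks, again 3 libraries each, served as the comparison for the change with age. PEP1 corresponds to FLC, a repressor of flowering in Arabidopsis. TOE2, an AP2-like protein that delays flowering, is the subject of the series. No source used here gives the lesion of eop055 or says whether it carries pep1-1 as well. The labels do not say whether replicates were separate plants or pools, and the p-values therefore rest on differences among these libraries, which may be technical.

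As a shoot ages, SPL transcription factors accumulate while the microRNA that holds them down declines. In Arabidopsis SPL proteins and the FT partner FD switch on the floral meristem genes LFY and AP1 in cells at the flanks of the meristem. LFY and AP1 then turn on the MADS-box genes that give floral organs their identity. AP2-like proteins and the TEM factors act against this switch.

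Gene counts came to between 11493020 and 13131278 in the 5-week eop055 apices and between 11007320 and 12823875 in the 3-week ones. Reads outside genes took 14.0 to 14.7% at 5 weeks and 11.1 to 11.8% at 3 weeks, and the scaling factors were 1.25 to 1.27 at 5 weeks and 1.15 to 1.16 at 3 weeks. Both moved with age, and their part in the results was not tested. The meristem gene LFY had 12.8 to 24.6 CPM (read counts relative to the scaled library total) in 5-week eop055 apices and 2.60 to 3.83 CPM in 3-week ones, against 0 counts in every eop055 leaf library. Names exist only for genes that the authors had listed as changed between genotypes, in libraries that include these, so a list's measured members are not an unbiased sample of it. A measured member is here one that had a name and was tested. Other members of a list may be among the genes counted without a name. In whole apices, fewer cells of a type and less RNA per cell cannot be told apart. The share of leaf tissue in each apex sample is not given, and its part in the results was not tested.

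Of 21275 genes tested, 7643 (35.9%) changed between 5 and 3 weeks in eop055 apices, at an adjusted p under 0.05 in edgeR's quasi-likelihood test, with p-values adjusted by Benjamini-Hochberg. At 5 weeks 3521 genes (16.5%) were higher and 4122 (19.4%) were lower. Among the larger changes, 553 genes were at least 2-fold higher and 1228 at least 2-fold lower. Of the 1381 tested genes with a name, 218 (15.8%) rose and 362 (26.2%) fell, with a median log2 fold change of -0.25, against 0.01 over all genes. These shares of named genes are the background for the list and family counts below.

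All 6 measured members of the flowering list rose in eop055 apices, with a median log2 fold change of 2.80. Of all named genes 15.8% rose. SPL9, an SPL factor that promotes the adult phase and flowering, had 73.3, 74.4 and 84.8 CPM at 5 weeks, against 31.0, 29.8 and 26.3 CPM at 3 weeks. SPL5 had 30.8, 28.2 and 47.8 CPM at 5 weeks, against 3.27, 2.74 and 2.11 CPM at 3 weeks. Neither gene's ages overlapped. The log2 fold change was 1.42 ± 0.12 (SE, edgeR's adjusted p = 4.23e-09) for SPL9 and 3.70 ± 0.24 (edgeR's adjusted p = 1.65e-09) for SPL5. SPL4, of the same small group as SPL5, had 5.08, 5.44 and 9.53 CPM at 5 weeks, against 0.545, 0.754 and 0.938 CPM at 3 weeks. SPL4 rose by 3.16 ± 0.30 on the log2 scale (edgeR's adjusted p = 3.79e-08).

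FD, the bZIP partner of FT, had 23.7, 21.3 and 29.3 CPM at 5 weeks, against 7.42, 10.7 and 7.66 CPM at 3 weeks, a log2 fold change of 1.52 ± 0.16 (edgeR's adjusted p = 1.11e-07). LFY had 13.7, 12.8 and 24.6 CPM at 5 weeks, against 3.06, 2.60 and 3.83 CPM at 3 weeks. Every 5-week library was above every 3-week one, and the log2 fold change was 2.43 ± 0.25 (edgeR's adjusted p = 7.24e-07). AP1, the MADS-box gene that marks floral meristems, had 81, 49 and 142 counts at 5 weeks, against 0, 1 and 0 counts at 3 weeks. The single count at 3 weeks puts its ratio at 248, and an exact counting interval of 44.1 to 9828 that covers counting error only. Without 3-week replicate 2 AP1 had 0 counts at 3 weeks and was at least 54.0-fold higher at 5 weeks; without 3-week replicate 1 the ratio was 161.

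**Figure D1:**
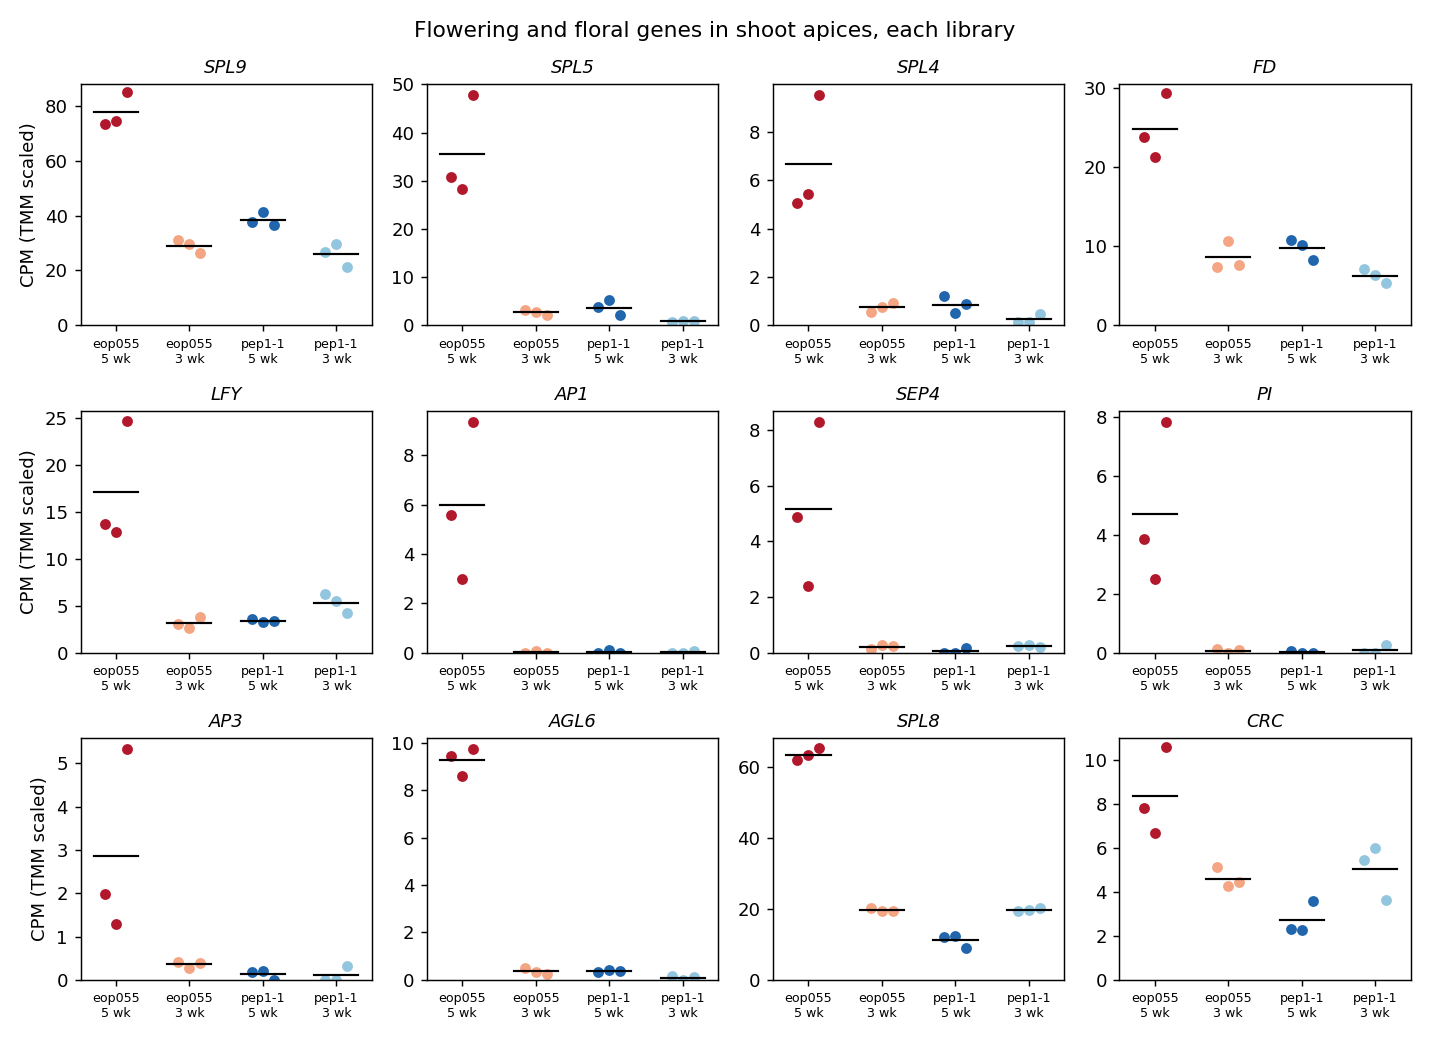
CPM (vertical axes, linear, one scale per gene) of 12 flowering and floral genes in each library of 5-week and 3-week eop055 apices and 5-week and 3-week pep1-1 apices; points are libraries and bars are group means. In every panel the 3 libraries of 5-week eop055 apices lie above those of 3-week eop055 apices.

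All 7 tested members of the floral organ list rose, against 15.8% of all named genes, with a median log2 fold change of 4.53. SEP4, a MADS-box gene of floral meristems and organs, had 4.87, 2.38 and 8.28 CPM at 5 weeks, against 0.136, 0.274 and 0.235 CPM at 3 weeks. The log2 fold change of SEP4 was 4.53 ± 0.49 (edgeR's adjusted p = 1.94e-07). PI and AP3, which act as a pair in petals and stamens, were also higher. PI had 56, 41 and 119 counts at 5 weeks, against 2, 0 and 1 counts at 3 weeks, a ratio of 65.6 and a counting interval of 22.2 to 321. Without 3-week replicate 1 the ratio was 128, without 3-week replicate 2 it was 42.9 and without 5-week replicate 3 it was 44.0. AP3 had 1.99, 1.28 and 5.32 CPM at 5 weeks, against 0.408, 0.274 and 0.391 CPM at 3 weeks. Its log2 fold change was 2.97 ± 0.60 (edgeR's adjusted p = 0.000531), and 2.15 without 5-week replicate 3.

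SEP1, which acts in all floral whorls, had 18, 12 and 59 counts at 5 weeks and 0 counts in each 3-week library. With a floor of 3 counts over the group it was at least 27.0-fold higher at 5 weeks, at least 13.6-fold without 5-week replicate 3, and at least 17.597-fold and 17.7-fold without 3-week replicates 1 and 2. SEP3 did not pass the filter on low counts, with 8, 5 and 27 counts at 5 weeks, against 0, 2 and 0 counts at 3 weeks. AGL6, a relative of the SEP genes, had 9.47, 8.62 and 9.73 CPM at 5 weeks, against 0.477, 0.343 and 0.235 CPM at 3 weeks, a log2 fold change of 4.66 ± 0.33 (edgeR's adjusted p = 1.09e-09). Its libraries of 1 age lay close together.

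SPL8, an SPL factor with a role in anthers, had 61.8, 63.3 and 65.3 CPM at 5 weeks, against 20.4, 19.3 and 19.5 CPM at 3 weeks. For SPL8 the log2 fold change was 1.69 ± 0.11 (edgeR's adjusted p = 2.42e-10). CRC, a YABBY factor of carpels and nectaries, had 7.82, 6.66 and 10.6 CPM at 5 weeks, against 5.11, 4.25 and 4.46 CPM at 3 weeks. CRC rose by 0.86 ± 0.23 on the log2 scale (edgeR's adjusted p = 0.00565), with an adjusted p of 0.0511 by edgeR without 5-week replicate 3. Summed over the 8 named flower organ markers (AP1, AP3, PI, SEP1, SEP3, SEP4, CRC and SPL8), 5-week eop055 apices held 80.15 to 112.3 CPM and 3-week ones 24.3 to 26.1 CPM. Leaving SPL8 out, the sum was 25.9, 16.9 and 47.0 CPM at 5 weeks, against 5.79, 5.00 and 5.16 CPM at 3 weeks. Replicate 3 was thus the highest of the 5-week libraries for this sum.

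The 2 measured floral repressors fell. Both also fell in pep1-1 apices, with log2 fold changes of -0.68 for TEM1 and -1.56 for TEM2 at an edgeR adjusted p under 0.05. TEM1, which represses FT and gibberellin synthesis in Arabidopsis, had 5.90, 5.81 and 5.65 CPM at 5 weeks, against 12.1, 18.4 and 14.1 CPM at 3 weeks, a log2 fold change of -1.36 ± 0.25 (edgeR's adjusted p = 0.000627). Its relative TEM2 had 3.5, 4.10 and 2.43 CPM at 5 weeks, against 9.12, 15.2 and 13.4 CPM at 3 weeks, a log2 fold change of -1.90 ± 0.45 (edgeR's adjusted p = 0.00518). Neither gene's ages overlapped.

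Largest changes were ranked among genes that averaged 5 CPM or more at the higher age and whose ages did not overlap. Among the 12 largest rises with a name under that limit, AP1, SEP4, AGL6, SPL5, SPL4, FAF2 and HAI1 belonged to the lists. Of these 12, AGL6, SPL5, SPL4, FAF2 and AT3G53140 also rose with age in pep1-1 apices, at an edgeR adjusted p under 0.05. Among those that rose in both, the difference between genotypes was called only for SPL5. The rest of the 12 did not pass in pep1-1. REM22, a B3-domain factor of the reproductive meristem family, had 3.98, 3.12 and 9.53 CPM at 5 weeks, against 0.136, 0.137 and 0.156 CPM at 3 weeks. Its log2 fold change was 5.18 ± 0.59 (edgeR's adjusted p = 4.75e-06), and 4.54 without 5-week replicate 3. HAI1, a protein phosphatase that dampens abscisic acid signalling, had 13.3, 16.1 and 19.98 CPM at 5 weeks, against 3.00, 1.85 and 3.36 CPM at 3 weeks. The log2 fold change was 2.59 ± 0.24 for HAI1 (edgeR's adjusted p = 2.22e-08). The other 4 were AT3G53140, annotated as an O-methyltransferase (3.59 ± 0.27), AT1G22160, of unknown function (2.72 ± 0.31), the branched-chain aminotransferase BCAT-2 (2.54 ± 0.25) and the zinc finger gene TZF5 (2.50 ± 0.51), each as a log2 fold change with its SE. TZF5 stood at 3.302 without 3-week replicate 2. Under the same limit, of the genes without a name Aa_G862480h1 and Aa_G52330h1 rose most, by 4.91 ± 0.62 and 4.53 ± 0.27 on the log2 scale, and Aa_G862480h1 stood at 5.99 without 3-week replicate 2. Both also rose in pep1-1 apices.

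The 12 largest falls with a name, under the same limit, included several pathogenesis-related genes. All of them except AT2G43590 also fell with age in pep1-1 apices, at an adjusted p under 0.05. In pep1-1 the log2 fold change was -4.62 ± 0.50 for CYP79C2 and -2.70 ± 0.34 for PR4. A difference between the genotypes was called only for PR4, ALPHA DOX2 and AT2G43590, and each of these calls was lost in some alternative fits. In 10 of these 12 genes the highest 3-week library was replicate 2. In 5-week eop055 leaves PUP17, SAG21, PR4 and ALPHA DOX2 averaged 655, 305, 123 and 49.0 CPM, above both ages of eop055 apices. The other genes of these 12 averaged less in those leaves than in 3-week eop055 apices. CYP79C2, a cytochrome P450 of the family that begins glucosinolate synthesis, had 0.961, 0.550 and 0 CPM at 5 weeks, against 73.7, 68.8 and 46.3 CPM at 3 weeks. Its log2 fold change was -6.95 ± 0.53 (edgeR's adjusted p = 6.83e-07), and -7.75 without 5-week replicate 1. PR4, a chitin-binding pathogenesis-related protein, had 1.17, 1.65 and 1.12 CPM at 5 weeks, against 23.1, 48.8 and 39.3 CPM at 3 weeks, a log2 fold change of -4.80 ± 0.35 (edgeR's adjusted p = 3.28e-07). The ages of both genes were far apart.

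The chitinase ChiC had 0 counts in each 5-week library, against 43, 146 and 76 counts at 3 weeks, and was at least 96.9-fold lower at 5 weeks. Without 3-week replicate 2 it was at least 66.6-fold lower, and the bound was at least 62.6-fold to at least 66.3-fold when any one 5-week replicate was left out. AT5G43570, annotated as a PR-6 proteinase inhibitor, had 0, 2 and 0 counts at 5 weeks, against 31, 153 and 126 counts at 3 weeks, a ratio of 170 and a counting interval of 46.7 to 1410. Without 5-week replicate 2 it was at least 73.2-fold lower at 5 weeks. A second chitinase-like gene, AT2G43590, had 0.961, 0.489 and 0.394 CPM at 5 weeks, against 5.45, 22.2 and 11.7 CPM at 3 weeks, a log2 fold change of -4.41 ± 0.53 (edgeR's adjusted p = 1.91e-05) and of -3.79 without 3-week replicate 2.

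The glutathione transferases GSTF2 and GSTF3, which conjugate toxic compounds, fell by 5.86 ± 0.64 and 4.52 ± 0.54 on the log2 scale, and GSTF2 stood at -7.19 without 5-week replicate 1. GSTF3 had 5.15, 3.48 and 2.43 CPM at 5 weeks, against 41.0, 110 and 102 CPM at 3 weeks. The berberine bridge enzyme-like genes ATBBE7 and ATBBE4 fell by 6.24 ± 0.69 and 4.86 ± 0.85, with values of -6.94 without 5-week replicate 1 for ATBBE7 and -9.46 without 5-week replicate 2 for ATBBE4. GSTF2 and GSTF3, like ATBBE4 and ATBBE7, are close relatives, so their split of reads is uncertain. ALPHA DOX2, a fatty acid dioxygenase, fell by 5.45 ± 0.51, the purine permease gene PUP17 by 4.08 ± 0.62 and the stress-induced SAG21 by 4.30 ± 0.61. SAG21 stood at -5.003 without 5-week replicate 1. Of the genes without a name, Aa_G377760h1 and Aa_G350700h1 fell most under that limit. Aa_G377760h1 was lower by a counted ratio of 144, and a counting interval of 39.5 to 1198, and by at least 62.1-fold without 5-week replicate 2. Aa_G350700h1 fell by 6.67 ± 0.71 on the log2 scale.

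**Figure D2:**
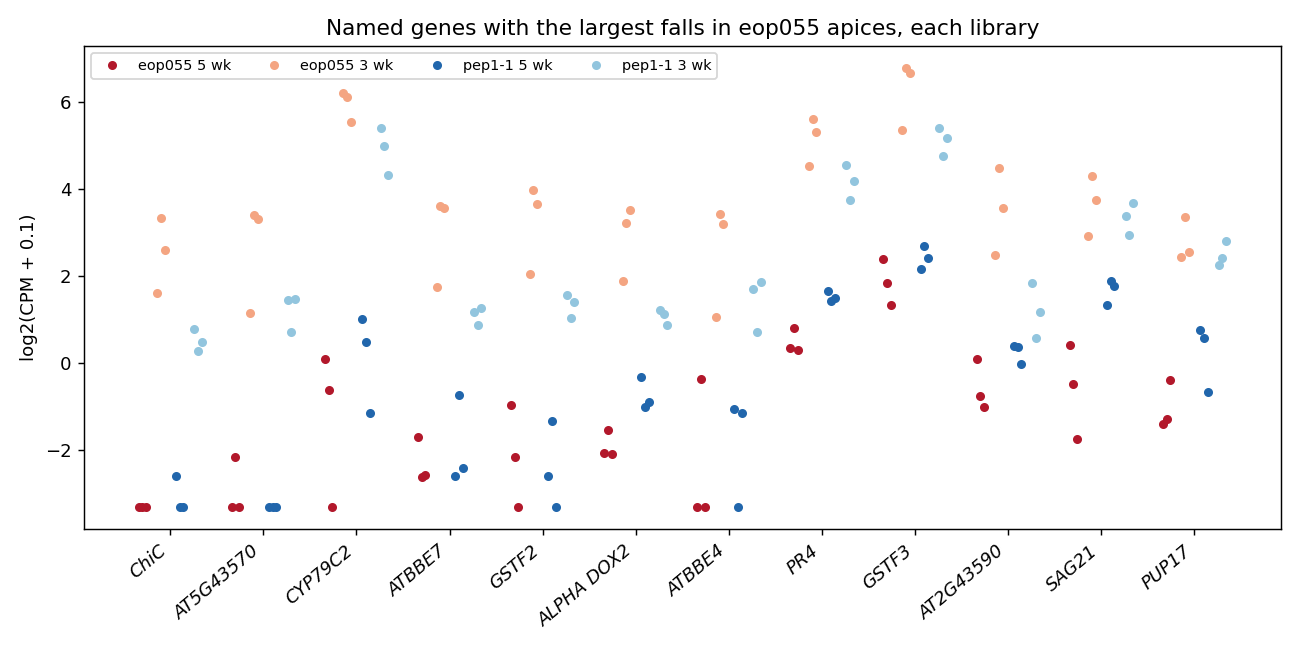
The 12 named genes with the largest falls in eop055 apices among those averaging 5 CPM or more at 3 weeks, as log2(CPM + 0.1) in each library, in the order 5-week eop055, 3-week eop055, 5-week pep1-1, 3-week pep1-1 within each gene. The 5-week eop055 libraries lie below the 3-week ones for each gene, and 3-week replicate 2 was the highest 3-week library in 10 of the 12.

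Of 11 measured members of the salicylate and immunity list, 3 fell and the other 8 did not pass the test, a share near the 26.2% of all named genes that fell. The median log2 fold change was -1.66. PR2, a glucanase induced by salicylate, had 0 counts in each 5-week library, against 33, 108 and 55 counts at 3 weeks, and was at least 71.7-fold lower at 5 weeks. That bound was at least 46.3-fold to at least 49.0-fold when any one 5-week replicate was left out, and at least 49.3-fold without 3-week replicate 2. WRKY53, a factor of senescence and defence, fell by 3.38 ± 0.66 on the log2 scale. CBP60G, which promotes salicylate synthesis, fell by 2.05 ± 0.64 (edgeR's adjusted p = 0.0232). Its call was lost without 3-week replicate 2 or without any one of the 5-week replicates, with an edgeR adjusted p of up to 0.13, and it stood at -1.36 without 3-week replicate 2. DESeq2 called 6 members of this list and 6 of the jasmonate and ethylene list.

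Of 12 measured jasmonate and ethylene genes, 3 fell and the other 9 did not pass, again near the 26.2% of named genes that fell. JAZ9, a repressor of jasmonate responses, had 31.6, 24.6 and 29.6 CPM at 5 weeks, against 44.9, 60.0 and 59.8 CPM at 3 weeks, a log2 fold change of -0.94 ± 0.24 (edgeR's adjusted p = 0.00878). ACS4, an enzyme of ethylene synthesis, had 0 counts in each 5-week library, against 3, 7 and 5 counts at 3 weeks, and was at least 5.49-fold lower. That bound was at least 3.75-fold without 5-week replicate 1, at least 3.54-fold without 5-week replicate 2 and at least 3.68-fold without 5-week replicate 3. The ethylene response factor ERF2 fell by 3.04 ± 0.96 (edgeR's adjusted p = 0.0265). Leaving out 3-week replicate 2 or 3, or any one 5-week replicate, ended that call, with an edgeR adjusted p of up to 0.119, and ERF2 stood at -2.45 without 3-week replicate 2. Of the 2 measured senescence genes SAG21 fell and the other did not pass.

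Aliphatic glucosinolates are defence compounds made from methionine in the cabbage family. Of 12 measured members of the glucosinolate list, 6 fell, CYP83B1 rose and 5 did not pass, with a median log2 fold change of -1.41. Of all named genes 26.2% fell. MYB28 and MYB29 switch on the aliphatic pathway in Arabidopsis. MYB29 had 0.137, 0.245 and 0.329 CPM at 5 weeks, against 3.34, 3.08 and 3.21 CPM at 3 weeks, and MYB28 had 9.13, 6.24 and 11.8 CPM at 5 weeks, against 19.9, 27.9 and 25.3 CPM at 3 weeks. Both sets of ages were apart, with log2 fold changes of -3.70 ± 0.39 for MYB29 (edgeR's adjusted p = 1.24e-07) and -1.43 ± 0.23 for MYB28 (edgeR's adjusted p = 0.000195).

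CYP79F1 and CYP83A1, the first enzymes of the aliphatic core pathway, fell by 3.44 ± 0.31 and 3.02 ± 0.39 on the log2 scale, and CYP79F1 stood at -4.54 without 5-week replicate 1. IMD1, of methionine chain elongation, had 14.0, 10.03 and 7.82 CPM at 5 weeks, against 47.3, 55.3 and 40.4 CPM at 3 weeks, a log2 fold change of -2.17 ± 0.21 (edgeR's adjusted p = 3.13e-06). In 5-week eop055 leaves CYP79F1, CYP83A1 and IMD1 averaged 199, 227 and 466 CPM, above both ages of eop055 apices. CYP83B1, which rose in apices, averaged 159 CPM in those leaves. The part of leaf tissue in these changes was not tested. CYP83B1 acts in the indole branch. It had 73.3, 82.5 and 89.6 CPM at 5 weeks, against 42.4, 54.5 and 46.5 CPM at 3 weeks, a log2 fold change of 0.78 ± 0.18 (edgeR's adjusted p = 0.00398), and was named after its values were seen. CYP79B2 and CYP79B3, also of the indole branch, did not pass, at -0.98 ± 0.47 and -0.92 ± 0.83 on the log2 scale.

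In the list of cold and abscisic acid genes 8 members were measured, of which HAI1 and ABI2 rose, RD29A and CYP707A1 fell and 4 did not pass. ABI2, a phosphatase like HAI1, rose by 0.36 ± 0.087 on the log2 scale. RD29A, a dehydration-responsive gene, had 176, 170 and 134 CPM at 5 weeks, against 267, 265 and 242 CPM at 3 weeks, a log2 fold change of -0.69 ± 0.12 (edgeR's adjusted p = 0.000361). CYP707A1, which breaks down abscisic acid, fell by 0.86 ± 0.25 (edgeR's adjusted p = 0.0126), a call lost without 3-week replicate 2 or 5-week replicate 3, with an edgeR adjusted p of up to 0.0625.

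Of 4 measured gibberellin genes 2 fell. GA3OX1, the last step to active gibberellin, had 17.2, 16.6 and 14.4 CPM at 5 weeks, against 25.1, 24.1 and 21.5 CPM at 3 weeks, a log2 fold change of -0.55 ± 0.17 (edgeR's adjusted p = 0.0148). GA2OX6, which inactivates gibberellin, fell by 1.96 ± 0.64 (edgeR's adjusted p = 0.025). The call of GA3OX1 was lost without 3-week replicate 1 or 5-week replicate 3 (edgeR's adjusted p up to 0.0644), and that of GA2OX6 without 3-week replicate 2 or 3 or 5-week replicate 2 or 3 (up to 0.0906). Of 3 measured auxin genes PILS3, an intracellular auxin carrier, rose and 2 did not pass. PILS3 had 31.0, 27.3 and 24.6 CPM at 5 weeks, against 6.13, 6.38 and 4.22 CPM at 3 weeks, a log2 fold change of 2.30 ± 0.15 (edgeR's adjusted p = 1.09e-10).

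The 2 measured cytokinin genes went opposite ways. LOG5, which activates cytokinin, had 15.7, 14.0 and 17.3 CPM at 5 weeks, against 4.42, 5.28 and 5.63 CPM at 3 weeks, and ARR5, a response regulator induced by cytokinin, had 13.0, 9.72 and 8.94 CPM at 5 weeks, against 21.6, 21.2 and 21.1 CPM at 3 weeks. The log2 fold changes were 1.62 ± 0.18 for LOG5 (edgeR's adjusted p = 1.01e-06) and -1.02 ± 0.18 for ARR5 (edgeR's adjusted p = 0.000293). Both measured meristem genes rose. FAF2, of a family that affects meristem size, rose by 2.97 ± 0.26. ZPR2, a small inhibitor of HD-ZIP III factors, had 17.98, 14.1 and 19.6 CPM at 5 weeks, against 13.0, 12.2 and 11.2 CPM at 3 weeks, a log2 fold change of 0.50 ± 0.15 (edgeR's adjusted p = 0.011). The ZPR2 call was lost without 3-week or 5-week replicate 3, with an edgeR adjusted p of up to 0.0736.

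Of 8 measured sugar and dormancy genes, ASPGB1 rose, DIN10 and TPPF fell and 5 did not pass. ASPGB1, an asparaginase, had 49.6, 39.5 and 36.5 CPM at 5 weeks, against 14.1, 10.7 and 9.85 CPM at 3 weeks, a log2 fold change of 1.85 ± 0.18 (edgeR's adjusted p = 2.16e-07). DIN10, a gene induced by darkness and sugar starvation, had 7.41, 11.1 and 14.4 CPM at 5 weeks, against 21.8, 54.0 and 54.5 CPM at 3 weeks, a log2 fold change of -1.98 ± 0.40 (edgeR's adjusted p = 0.00211). The trehalose phosphatase TPPF fell by 1.04 ± 0.29. Of 3 measured cell wall genes, the arabinogalactan protein FLA9 and the expansin EXPA8 fell by 2.74 ± 0.36 and 2.17 ± 0.39.

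The amino acid export list held SIAR1 and UMAMIT36, and both fell; among the 6 tested exporters of that family 5 fell. SIAR1 had 9.88, 8.56 and 7.36 CPM at 5 weeks, against 24.1, 27.4 and 18.9 CPM at 3 weeks, a log2 fold change of -1.45 ± 0.15 (edgeR's adjusted p = 1.16e-07). UMAMIT36 had 1, 1 and 0 counts at 5 weeks, against 5, 9 and 7 counts at 3 weeks, lower by a ratio of 11.5 and a counting interval of 2.82 to 101; without 5-week replicate 3 the ratio was 7.72. The single measured flavonoid gene, the flavonol synthase FLS1, rose by 1.66 ± 0.17 and the single heat shock gene, HSP90.1, by 1.69 ± 0.34. The single measured epidermis gene did not pass. No member of the cell division, photosynthesis and vascular lists had a name, so these lists could not be counted.

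Of 9 measured clock genes 2 rose and 7 did not pass. JMJD5, a histone demethylase whose Arabidopsis mutant has a short circadian period, had 8.99, 4.22 and 3.09 CPM at 5 weeks, against 1.16, 1.44 and 1.80 CPM at 3 weeks, a log2 fold change of 1.89 ± 0.50 (edgeR's adjusted p = 0.00793). CCA1, a morning factor of the clock, had 4.32, 3.42 and 4.80 CPM at 5 weeks, against 3.54, 2.67 and 1.96 CPM at 3 weeks, and its ages overlapped. Its log2 fold change was 0.60 ± 0.19 (edgeR's adjusted p = 0.0164), a call lost in fits of fewer libraries and without 3-week replicate 2 or 3 or 5-week replicate 3, with an edgeR adjusted p of up to 0.11. The time of day of harvest was not stated in the labels.

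**Figure D3:**
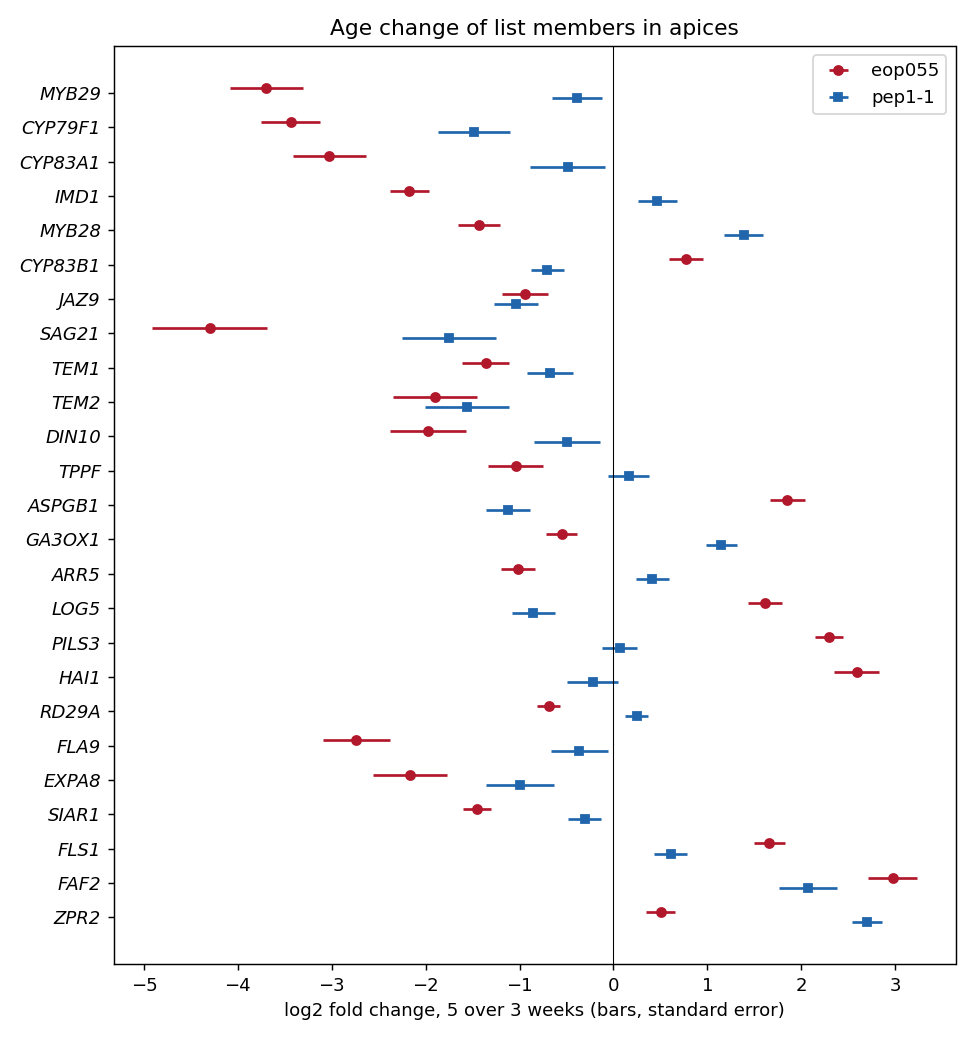
Log2 fold change of 5 over 3 weeks (horizontal axis) of members of the gene lists in eop055 apices (circles) and pep1-1 apices (squares), with standard errors. MYB28 and GA3OX1 lie left of 0 in eop055 and right of 0 in pep1-1, and ASPGB1 and LOG5 the other way round.

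The change with age was then set beside that of pep1-1 apices, which shares no library with it. In pep1-1, 8285 of the 21275 genes tested (38.9%) changed: 3971 were higher and 4314 lower at 5 weeks. These counts over all genes are the base for the shared lists below. Across the 21275 genes the log2 fold changes of the genotypes had a Pearson r of 0.603 and a Spearman rho of 0.567, as a description, since genes are not independent replicates. Of the genes that rose in eop055, 1918 also rose in pep1-1, 54.5% of the eop055 and 48.3% of the pep1-1 list. Of those that fell in eop055, 2411 also fell in pep1-1, 58.5% of the eop055 and 55.9% of the pep1-1 list. The test of the difference itself called 2265 genes (10.6%), and 386 of the 1381 with a name (28.0%). Genes have a name because the authors listed them as changed between genotypes, in libraries that include these. The higher share among named genes is therefore not a separate result. Of the genes that passed in both genotypes 311 had opposite signs, beside the 1918 that rose in both and the 2411 that fell in both.

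Among these genes chosen for a genotype change, of which 28.0% were called, list members were counted in the same way. The difference was called for 4 of 6 flowering genes (SPL9, FD, LFY and SPL5) and for 4 of 7 tested floral organ genes (PI, SEP4, SPL8 and CRC). It did not pass for AP1 (edgeR's adjusted p = 0.21), SEP1 (edgeR's adjusted p = 0.153), AP3 (edgeR's adjusted p = 0.308) or AGL6 (edgeR's adjusted p = 0.0813). The PI difference was lost without 3-week eop055 replicate 2, 3-week pep1-1 replicate 3 or 5-week pep1-1 replicate 2 or 3, with an edgeR adjusted p of up to 0.975. LFY had 3.56, 3.27 and 3.32 CPM in 5-week pep1-1 apices and 6.22, 5.53 and 4.19 CPM in 3-week ones. The difference, eop055 change minus pep1-1 change, was 3.07 ± 0.37 on the log2 scale (edgeR's adjusted p = 2.97e-05). SPL8 fell in pep1-1, with 12.1, 12.4 and 8.92 CPM at 5 weeks, against 19.4, 19.8 and 20.2 CPM at 3 weeks, and its difference was 2.52 ± 0.17 (edgeR's adjusted p = 3.82e-09). CRC likewise rose in eop055 and fell in pep1-1, with a difference of 1.74 ± 0.34 (edgeR's adjusted p = 0.00209).

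SPL9, SPL5, SPL4 and FD rose in both genotypes. AGL6 did so too, in pep1-1 on only 13 counts at 5 weeks and 4 at 3 weeks. SPL9 rose by 0.57 ± 0.12 in pep1-1, with a difference of 0.85 ± 0.16 (edgeR's adjusted p = 0.00125). FD rose by 0.65 ± 0.17 in pep1-1, with a difference of 0.87 ± 0.24 (edgeR's adjusted p = 0.0174). SPL5 rose by 1.99 ± 0.35, with a difference of 1.71 ± 0.47 (edgeR's adjusted p = 0.0235). The FD difference was lost without replicate 3 of either eop055 age, 5-week pep1-1 replicate 3 or 3-week pep1-1 replicate 1. That of SPL5 was lost in fits of only the apices and without replicate 2 or 3 of either 3-week group. The difference did not pass for SPL4 (1.47 ± 0.70, edgeR's adjusted p = 0.203), TEM1 (-0.68 ± 0.35, edgeR's adjusted p = 0.262) or TEM2 (-0.34 ± 0.65, edgeR's adjusted p = 0.823). AP1 and SEP1 were at 0 or 1 count in every pep1-1 apex library.

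Among named genes that averaged 5 CPM or more in some apex group, the 6 largest positive differences were those of SEP4, JMJD5, LOX2, AT5G02230, LFY and ASPGB1. LOX2, a lipoxygenase of jasmonate synthesis, had 56.5, 49.1 and 31.6 CPM in 5-week eop055 apices, against 45.1, 31.3 and 36.4 CPM at 3 weeks, a log2 fold change that did not pass (0.28 ± 0.28, edgeR's adjusted p = 0.46). In pep1-1 it had 2.16, 4.16 and 2.45 CPM at 5 weeks, against 17.0, 19.3 and 33.2 CPM at 3 weeks, and the difference was 3.33 ± 0.50 (edgeR's adjusted p = 0.000935). JMJD5 fell by 2.49 ± 0.47 in pep1-1, with a difference of 4.38 ± 0.68 (edgeR's adjusted p = 0.000685), and of 5.18 without 5-week pep1-1 replicate 3.

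Under the same minimum of 5 CPM the 6 largest negative differences were those of ALPHA DOX2, AT2G43590, IPMI2, MYB28, DAAR1 and IMD1. Those of ALPHA DOX2 and AT2G43590 were lost in some alternative fits, with an edgeR adjusted p of up to 0.138 and 0.0893. MYB28 rose in pep1-1, with 44.0, 48.1 and 58.0 CPM at 5 weeks, against 21.0, 17.5 and 18.9 CPM at 3 weeks, and its difference was -2.82 ± 0.30 (edgeR's adjusted p = 4.04e-05). IPMI2, annotated as an isopropylmalate isomerase, fell by 2.29 ± 0.36 in eop055 and had a difference of -2.99 ± 0.51 (edgeR's adjusted p = 0.00201). DAAR1, annotated as a racemase that makes D-allo-isoleucine, had 0.686, 1.71 and 1.38 CPM at 5 weeks, against 15.9, 17.1 and 11.6 CPM at 3 weeks in eop055, and a difference of -2.73 ± 0.36 (edgeR's adjusted p = 3.51e-05).

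Of the 311 genes with opposite signs, 134 rose in eop055 and fell in pep1-1, and 177 did the reverse. The split was the other way round among the 101 with a name: 58 rose in eop055 and fell in pep1-1, and 43 did the reverse. Those whose smaller change was largest, at 5 CPM or more in some apex group and chosen after their values were seen, were JMJD5, AT5G02230, ASPGB1, AT3G28580 and AT4G37850 among the first, and MYB28, AHP3, AT1G49500, PAP8 and TLL1 among the second. AHP3, a phosphotransfer protein of cytokinin signalling, had 3.5, 5.08 and 3.09 CPM at 5 weeks, against 9.26, 10.2 and 8.91 CPM at 3 weeks in eop055. In pep1-1 it had 18.1, 12.9 and 21.6 CPM at 5 weeks, against 9.14, 6.56 and 7.58 CPM at 3 weeks. GA3OX1 also rose in pep1-1, by 1.15 ± 0.17, and its difference was -1.70 ± 0.23 (edgeR's adjusted p = 9.79e-05). ZPR2 rose in both genotypes but by 2.70 ± 0.16 in pep1-1, a difference of -2.20 ± 0.22 (edgeR's adjusted p = 6.95e-07).

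**Figure D4:**
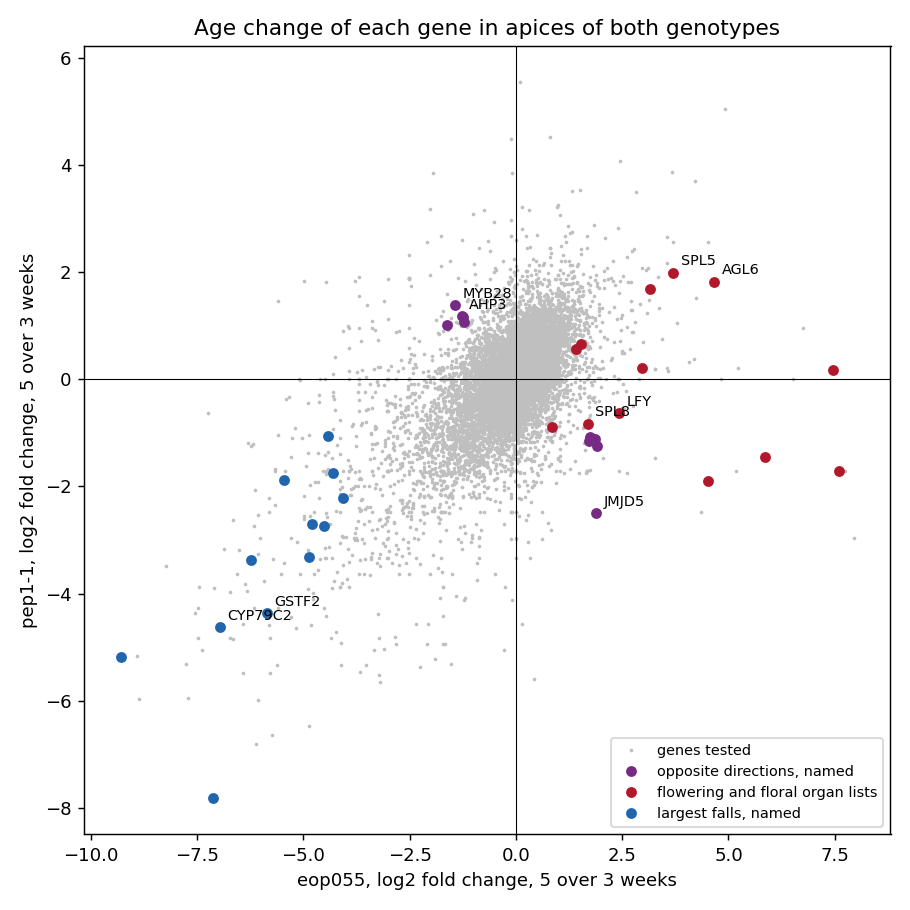
Log2 fold change of 5 over 3 weeks in eop055 apices (horizontal axis) against that in pep1-1 apices (vertical axis) for the 21275 genes tested, with named members of the flowering and floral organ lists, the largest falls and genes of opposite sign in colour. The cloud runs from lower left to upper right (Pearson r 0.603), while LFY and SPL8 lie in the lower right and MYB28 and AHP3 in the upper left.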

How the data were processed

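The authors deposited raw read counts per gene for 18 libraries; per the submitters' processing notes STAR, HTSeq 0.5.4p1, DESeq and DESeq2 were used. The genome build, annotation and strand setting were named in no source used here, so antisense, overlapping and near-identical genes are uncertain. The 5 summary entries, reads outside genes among them, stayed out of library sizes and tests.

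Counts were fitted in R 4.3.3 with edgeR 4.0.16 (glmQLFit, robust, and glmQLFTest), all 18 libraries as 6 group means, after filterByExpr and TMM scaling. A gene was called where its p, adjusted by Benjamini-Hochberg, was under 0.05. CPM values are TMM scaled. On simulated counts for 5 against 3 weeks in eop055 apices, 89.6% of 67 genes changed 2-fold were recovered among 21089 tested, with 5.88% of calls false. Of 67 genes changed 1.5-fold 53.7% were recovered. Besides these only 66 genes, at 4-fold, were changed, a far smaller share than was called in the data. The biological coefficient of variation was 9.65%. A group at 0 counts was given 3 counts in total as its floor; with 1 to 3 counts a ratio is given with an exact Clopper-Pearson 95% interval, for counting error only.

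Names come from the authors' deposited lists, used as an identifier dictionary: 1399 of 1816 listed genes were matched to 1 row. The members, the 22 gene lists and the tests were chosen with earlier results of these data known. Among called genes with a name, the text describes the 12 that rose most and the 12 that fell most, given at least 5 CPM in the higher age and no overlap of ages, the 2 largest of each among unnamed genes, every named flowering, floral organ and repressor gene, called clock genes, at most 4 called genes from any other list, and the 6 largest differences each way among named genes with at least 5 CPM in some apex group. Lists were counted, not tested. The fit was repeated with upper quartile or RLE scaling, without the filter or with at least 50 counts in 3 libraries, in DESeq2 1.42.0, on the 12 apex libraries or the compared ones alone, with a replicate block, and leaving each library out in turn; counts were also taken at 2-fold or more and at an adjusted p of 0.01. Figures were drawn with matplotlib 3.10.9.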

Additional observations from a re-analysis of the deposited data

Results flagged for a closer look

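Genes named here whose change with age differed between the genotypes, by the test of that difference in the edgeR fit, are given as eop055 change minus pep1-1 change on the log2 scale. The positive differences included 7.32 for PI, 6.43 for SEP4, 4.38 for JMJD5, 3.75 for AGL71, 3.33 for LOX2, 3.16 for AT5G02230, 3.07 for LFY, 2.98 for ASPGB1, 2.86 for AT3G28580. Others were 2.82 for AT4G37850, 2.81 for HAI1, 2.52 for SPL8, 2.47 for LOG5, 2.23 for PILS3, 2.05 for BCAT-2, 1.97 for Aa_G52330h1, 1.88 for UGT84A2, 1.85 for AT1G22160. Smaller ones were 1.74 for CRC, 1.71 for SPL5, 1.53 for SULTR3;2, 1.48 for CYP83B1, 1.05 for FLS1, 0.87 for FD, 0.85 for SPL9. The negative differences included -0.94 for RD29A, -1.14 for SIAR1, -1.15 for CYP707A1, -1.20 for TPPF, -1.43 for ARR5, -1.64 for CYP79A2, -1.70 for GA3OX1, -1.75 for CYP71B5, -1.95 for CYP79F1. Further negative ones were -2.08 for AGL15, -2.10 for PR4, -2.20 for ZPR2, -2.29 for PAP8, -2.37 for FLA9, -2.41 for AT1G49500, -2.46 for AHP3, -2.54 for CYP83A1, -2.63 for TLL1. The rest were -2.64 for IMD1, -2.73 for DAAR1, -2.82 for MYB28, -2.99 for IPMI2, -3.31 for MYB29, -3.35 for AT2G43590, -3.57 for ALPHA DOX2. The values for PI and SEP4 depend on the prior count, because pep1-1 apices held few counts of either, and they ran from 3.99 to 9.16 for PI and from 5.73 to 9.11 for SEP4 when each library was left out. For JMJD5, leaving out 5-week pep1-1 replicate 3 gave 5.18. CYP79F1 stood at -3.06 without 5-week eop055 replicate 1, and AT2G43590 at -2.73 without 3-week eop055 replicate 2. Of 50 such calls 39 held under every alternative run on them. The other 11 were lost in at least 1, with a highest edgeR adjusted p of 0.975 for PI, 0.171 for CYP79F1, 0.138 for ALPHA DOX2, 0.131 for Aa_G52330h1, 0.112 for TPPF and 0.108 for CYP707A1. It was 0.0893 for AT2G43590, 0.0882 for SPL5, 0.0824 for PR4, 0.0697 for AT1G22160 and 0.0631 for FD.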

How the results depend on the processing

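The counts of genes changed with age in eop055 and pep1-1 apices, and of list members, stayed within 1.5 times under the other scalings, filters, DESeq2, fits of fewer libraries and a replicate block. A 2-fold minimum left 1781 genes in eop055, 1587 in pep1-1 and 757 for the difference, and an adjusted p under 0.01 left 1114 for the difference. Leaving out each library gave 6211 to 6743 genes in eop055, 6737 to 7953 in pep1-1, 1515 to 2230 for the difference and 45 to 53 list members, against 51 with all libraries. Among calls in eop055 the share that rose was 46.1%, 38.6% with RLE, 51.3% with upper quartile scaling and 37.5% with DESeq2. Same-numbered eop055 libraries correlated at 0.037, 0.046 and 0.065 and pep1-1 ones at 0.053, -0.044 and 0.004. Such small values do not decide whether the numbers pair the samples. With the replicate block 7697 genes were called in eop055, 8322 in pep1-1, 2340 for the difference and 51 list members. Each eop055 library correlated best with its own number, a hint from the data and not from the design. In pep1-1 this did not hold: 5-week replicate 2 correlated best with 3-week replicate 3 (0.051), and 5-week replicate 3 with 3-week replicate 2 (0.036). With a filter of 50 counts 3 floral organ genes remained called, since fewer were tested. Genes near 1 CPM rest on few reads.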

Other observations

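Families of named genes, grouped by a word in the authors' symbol or description after the values were seen and only counted, moved with age in eop055 apices as follows. Of 24 tested cytochrome P450 genes 14 fell, CYP83B1 rose and 9 did not pass, where 26.2% of all named genes fell and 15.8% rose. CYP79A2, of the family that converts amino acids to oximes, had 12.6, 9.05 and 9.40 CPM at 5 weeks, against 69.5, 66.8 and 47.7 CPM at 3 weeks, and CYP71B5 fell by 2.81 ± 0.17 on the log2 scale. Of 7 berberine bridge enzyme-like genes 6 fell, among them ATBBE22, with 0 counts over the 5-week libraries and 79 over the 3-week ones, at least 28.9-fold lower. That bound fell to at least 17.9-fold without 3-week replicate 2, and to at least 18.6-fold to at least 19.8-fold without any one 5-week replicate. All 3 glutathione transferases and 5 of 6 UMAMIT and SIAR1 amino acid exporters fell. Of 8 SAUR genes, small auxin-responsive genes, 5 fell and 3 did not pass, and of 15 WRKY genes 2 fell and 13 did not pass.

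Of 9 tested MADS-box genes 8 rose, against 15.8% of all named genes. AP1, AP3, PI, SEP1, SEP4 and AGL6 among them belong to the flowering and floral organ lists already counted. AGL71, a relative of SOC1, had 3.77, 2.87 and 6.97 CPM at 5 weeks, against 0.204, 0.206 and 0.391 CPM at 3 weeks, a log2 fold change of 4.06 ± 0.46 (edgeR's adjusted p = 3.33e-07). AGL15 fell by 1.59 ± 0.30. Of 11 UDP-glycosyltransferase genes 6 rose and 4 fell. UGT84A2 had 42.5, 38.2 and 32.7 CPM at 5 weeks, against 19.1, 15.01 and 13.8 CPM at 3 weeks, UGT71B1 rose by 2.71 ± 0.33, and UGT72E2 had 58 counts over the 5-week and 1 over the 3-week libraries. Of 4 SWEET sugar transporter genes SWEET10 rose, with 165 counts at 5 weeks and 1 at 3 weeks, a ratio of 150 and a counting interval of 26.6 to 5976. Without 3-week replicate 3 SWEET10 was at least 34.9-fold higher, and without 3-week replicate 1 or 2 the ratio was 97.9 or 98.2. Of 4 sulfate transporter genes 2 rose and 2 fell: SULTR3;2 had 5.63, 7.28 and 8.21 CPM at 5 weeks, against 2.79, 3.08 and 3.28 CPM at 3 weeks, and SULTR2;1 had 0.343, 0.795 and 0.197 CPM at 5 weeks, against 8.03, 7.68 and 7.51 CPM at 3 weeks.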
